A study of Mus musculus with 8 samples.

Results

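Hyaluronan is broken down in steps, and 7 mouse genes that carry out those steps are described here: the hyaluronidases Hyal1, Hyal2 and Hyal3, the depolymerases Cemip and Tmem2 (also named Cemip2), and the lysosomal exoglycosidases Hexa and Gusb. They were chosen by name, with earlier results of these data known, out of 55414 genes counted by RNA sequencing of cultured mouse cardiac fibroblasts. All 7 were in the table and all 7 passed the filter on low counts, as did 15150 genes in all. In the study, 4 cultures received an adenovirus for Has2 (hyaluronan synthase 2, the enzyme that makes hyaluronan at the plasma membrane) and 4 received an adenovirus for green fluorescent protein (GFP), the control.

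As labelled, the groups differed in the virus alone. The labels give the strain C57BL/6J and the genotype wild type, while the protocol text speaks of Has2fl/fl animals. The protocol also mentions a Cre virus, and no such sample was analysed here. Each flask was started with the fibroblasts of 1 heart. At passage 2 cells were kept without serum for 24 h, held with virus for 5 h, and then stimulated for 48 h in medium with bFGF and TGFb, for which 20 ng/mL is given. Replicates 1 and 2 of each virus are female and replicates 3 and 4 male. Libraries of 1 replicate number carry the same preparation identifier under both viruses, and are called a pair below. The sources used here state neither the promoter of the viral Has2 gene nor the age of the animals. The labels also leave unsaid whether each preparation is a different animal, and the p-values therefore reflect the spread of these samples alone, which may be technical.

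Large hyaluronan in the matrix is first cut outside the cell or at its surface. CEMIP, a hyaluronan-binding depolymerase, and TMEM2, a transmembrane protein related to it, act there, as does HYAL2, which is anchored to the membrane by a lipid. Fragments that are taken up reach the lysosome, where HYAL1 cuts them further. There the exoglycosidases remove single sugars from the chain ends: beta-glucuronidase (Gusb) takes off glucuronic acid, and beta-hexosaminidase, whose alpha subunit is encoded by Hexa, takes off N-acetylglucosamine. HYAL3 belongs to the same family by sequence, and its part in hyaluronan turnover is less clear.

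Libraries held 46981231 to 55795187 counts, of which the 7 enzymes gave between 542 and 748 CPM in sum (counts scaled by the TMM-adjusted library size). Has2 marked the groups as labelled. It stood at 25.2, 7.36, 18.3 and 21.3 CPM in GFP replicates 1 to 4 and at 9533, 8406, 3209 and 4860 CPM in Has2 replicates 1 to 4, so the groups were far apart. Its counts hold the cell's own and the viral transcript together. The 12 fibroblast markers summed to between 30233 and 48785 CPM, and of 10 cardiomyocyte markers 9 averaged under 1 CPM. Macrophage markers were present in every library: 17 genes summed to between 1192 and 2777 CPM with the GFP virus and between 1100 and 3035 CPM with the Has2 virus. In such bulk libraries, fewer cells of a type and less RNA per cell cannot be told apart.

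Upstream sequence is shown for the 3 enzymes on which the patterns described further on turn: Cemip, which differed most between preparations, and Hexa and Gusb, which varied together within pairs. Each line gives the 250 bases before the RefSeq start, 5′ to 3′ on the gene's strand, from RefSeq's table on GRCm38.p6. This is an older build than the one used for counting, so the positions apply to the sequences only. Capitals mark matches, on either strand, to any of 4 short motifs. The first is the E-box at the core of the element that the lysosomal regulator TFEB binds, spelled CACGTG. The second is the TATA box, searched here with the letters TATAAA. The third is the CCAAT box, named for its letters. The last is the GC box, for which the search used GGGCGG. No matches of different motifs overlap in these lines.
Cemip, chr7:84086506-84086755, minus strand: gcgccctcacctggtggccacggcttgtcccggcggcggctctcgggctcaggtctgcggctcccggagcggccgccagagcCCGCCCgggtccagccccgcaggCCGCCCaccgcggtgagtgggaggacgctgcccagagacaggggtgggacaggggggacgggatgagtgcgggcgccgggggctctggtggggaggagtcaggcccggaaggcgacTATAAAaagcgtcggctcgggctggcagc
Hexa, chr9:59539290-59539539, plus strand: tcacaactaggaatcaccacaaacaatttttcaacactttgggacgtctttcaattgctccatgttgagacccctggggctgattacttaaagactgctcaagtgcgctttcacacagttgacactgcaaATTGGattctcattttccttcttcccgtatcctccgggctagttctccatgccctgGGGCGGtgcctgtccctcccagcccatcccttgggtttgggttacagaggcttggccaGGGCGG
Gusb, chr5:130003050-130003299, minus strand: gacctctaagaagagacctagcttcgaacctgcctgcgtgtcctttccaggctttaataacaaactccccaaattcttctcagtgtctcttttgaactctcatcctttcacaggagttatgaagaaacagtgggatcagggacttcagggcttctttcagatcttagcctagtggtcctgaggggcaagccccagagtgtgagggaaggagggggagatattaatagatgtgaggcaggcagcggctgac

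The Cemip window is the richest in G and C of the 6 members found in that table (Tmem2 was the one not found). It has 75.2% GC and 26 CpG dinucleotides, against medians of 52.4% and 6 over 32851 promoters. It also carries the sole TATAAA among the 6, at 29 to 24 bases before the start; 12.4% of all promoters hold that motif. GGGCGG occurs in 5 of the 6 members and in 32.7% of all promoters, and Gusb is the member without it. Some of these windows hold annotated exon. All 250 bases of the Hyal3 window are exon of Hyal1. In the Hyal2 and Hyal1 windows 180 and 23 bases are exon of the gene itself. CCAAT was found in Hexa and Hyal1, compared with 33.8% of all promoters. CACGTG was in 0 of the 6, and in 6.02% of all promoters. These matches describe letters in a window and say nothing of binding.

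Per exon length the lysosomal exoglycosidases were the most abundant transcripts of this set. Levels are given as CPM per kilobase of annotated exon, as means of the 8 libraries with their lowest and highest value. Hexa led with 144 (120 to 190), followed by Gusb with 34.4 (26.7 to 42.9). Neither range overlaps that of any other member. Next came the genes that act outside or at the membrane: Cemip at 10.3 (2.57 to 25.7), Hyal2 at 8.06 (5.63 to 11.1) and Tmem2 at 6.31 (2.89 to 9.50). These 3 ranges overlap, so no order can be read among them. Hyal1 was lower still, at 1.48 (1.08 to 2.47), and Hyal3 was lowest, at 0.147 (0.0325 to 0.247). Among all genes tested, Hexa lay at the 97.8th percentile of CPM per kilobase, Gusb at the 90.0th, Hyal1 at the 34.4th and Hyal3 at the 7.15th.

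The low level of Hyal1 depends on how its exons are counted. In GENCODE M21 it shares 1920 of its 3777 exon bases with Naa80, an acetyltransferase gene on the same strand, and 159 with Hyal3. How reads from those stretches were counted is not stated. No reads were counted over the 1816 bases that no other gene on its strand shares. With the whole count of Hyal1 divided by that length, it had 3.07 CPM per kilobase (2.24 to 5.14), a range that reaches into that of Tmem2. This holds only if every counted read fell in those bases, and is otherwise an upper limit. The other hyaluronidase genes of the mouse, Hyal4, Hyal5, Hyal6 and Spam1, had 0 counts in all 8 libraries.

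**Figure D1:**
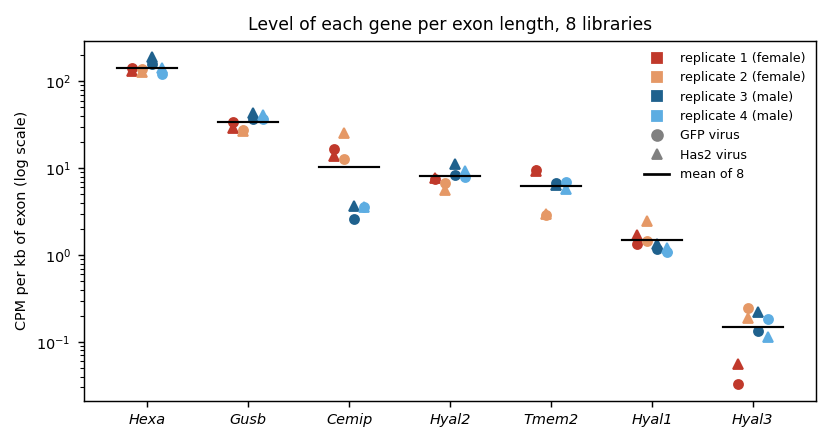
Level of each gene in CPM per kilobase of exon (log scale), with circles for the GFP virus, triangles for the Has2 virus, colours for the replicate number and a black bar for the mean of the 8 libraries. Hexa and Gusb stand above all others, Cemip, Hyal2 and Tmem2 overlap, and Hyal3 is lowest with a mean of 0.147.

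None of the 7 enzymes passed the test between the Has2 and GFP viruses. The comparison asks whether cells made to produce hyaluronan synthase also change the transcripts of the enzymes that break hyaluronan down. In edgeR's quasi-likelihood fit with the replicate number as a block, 0 of 7 members had a Benjamini-Hochberg adjusted p under 0.05, beside 1 of all 15150 genes tested (0.0066%), which was Has2. At an unadjusted p under 0.05 the members numbered 1 (Hyal1), beside 7.49% of all genes. DESeq2 with the same block called 61 genes and 0 members. Of the 7 log2 fold changes 5 were positive and the median was 0.07, against a median of -0.02 over all genes. Every member's ranges with the GFP and Has2 viruses overlapped, whereas 2.38% of all genes had ranges that did not.

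Hyal1, the lysosomal hyaluronidase, was the member with the smallest p. Its levels were 5.13, 5.52, 4.49 and 4.08 CPM in GFP replicates 1 to 4 and 6.505, 9.34, 5.03 and 4.56 CPM in Has2 replicates 1 to 4. Has2 replicate 2 was the highest library, and in each pair the Has2 library lay above its GFP partner. The ratios within pairs were 1.27, 1.69, 1.12 and 1.12. Hyal1 was the 1 member of 7 with the same direction in all 4 pairs, which held for 17.1% of all genes. For Hyal1 the fitted log2 fold change was 0.36 with a 95% interval of 0.01 to 0.71 (SE 0.15; unadjusted p = 0.047; edgeR adjusted p = 0.648). Counts ran from 206 to 455 per library, so it is one of the less precisely measured members. Without replicate 2 its log2 fold change was 0.22.

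Naa80, whose exons overlap those of Hyal1, moved alongside it. Naa80 averaged 25.8 ± 3.17 CPM in the GFP libraries against 30.6 ± 1.44 CPM in the Has2 libraries (SD, n = 4), and was higher in 4 of 4 pairs. The log2 fold change of Naa80 was 0.25 (SE 0.10; unadjusted p = 0.0472; edgeR adjusted p = 0.648). The part of the shared exons in the Hyal1 value was not tested. Of the 10 genes listed as neighbours of the Hyal cluster 8 were tested, 5 with a positive and 3 with a negative fold change, and 0 passed. Their median log2 fold change was 0.01. For Sema3b, a secreted semaphorin, the log2 difference was 0.23 (SE 0.16), and for Ifrd2 it was 0.11 (SE 0.12).

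Hyal2, the membrane-anchored hyaluronidase, went different ways in different pairs. It was at 25.04, 22.1, 27.8 and 26.1 CPM in GFP replicates 1 to 4, and at 25.4, 18.5, 36.7 and 30.8 CPM in Has2 replicates 1 to 4. The Has2 library was the higher one in both male pairs, nearly level with its partner in pair 1 and lower in pair 2. This gave a log2 fold change of 0.10 with a 95% interval of -0.20 to 0.41 (SE 0.13; edgeR adjusted p = 0.823). That interval limits a change to between 0.868 and 1.33 times the GFP level.

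Hyal3 was near the limit of measurement. Its counts were 3, 22, 13 and 18 in GFP replicates 1 to 4 and 6, 18, 23 and 11 in Has2 replicates 1 to 4. Both libraries of replicate 1 were the lowest. With so few counts the 95% interval of its log2 fold change of -0.00 ran from -0.89 to 0.88. That interval spans changes to between 0.540 and 1.84 times the GFP level.

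Cemip, the hyaluronan-binding depolymerase, had the widest spread. It was at 201, 158, 31.5 and 43.8 CPM in GFP replicates 1 to 4 and at 167, 315, 45.5 and 43.9 CPM in Has2 replicates 1 to 4. Has2 replicate 2 was 1.99 times as high as its partner, replicate 3 was 1.45 times as high, pair 4 was level at 1.00 and pair 1 went the other way at 0.828. Cemip's log2 fold change of 0.31 had a 95% interval of -0.18 to 0.81 (SE 0.21; edgeR adjusted p = 0.675). Without replicate 2 it was 0.09.

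Tmem2, the other depolymerase, was lower with the Has2 virus in 3 of 4 pairs. Its levels were 81.0, 24.6, 57.4 and 59.4 CPM in GFP replicates 1 to 4 and 79.2, 25.1, 54.3 and 49.3 CPM in Has2 replicates 1 to 4. Both libraries of replicate 2 were the lowest. The ratios within pairs were 0.977, 1.02, 0.945 and 0.830, so pair 4 differed most. The fit gave Tmem2 a log2 fold change of -0.09 with a 95% interval of -0.32 to 0.14 (SE 0.10; edgeR adjusted p = 0.795). Of the 7 members it had the smallest SE in this fit, while without the block its SE was 0.39.

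The lysosomal exoglycosidases were the most precisely counted, with 5778 to 20398 counts per library. Hexa was at 281, 277, 317 and 240.4 CPM in GFP replicates 1 to 4 and at 259, 253, 379 and 286 CPM in Has2 replicates 1 to 4. Gusb was at 155, 127, 167 and 168 CPM in GFP replicates 1 to 4 and at 130.5, 122, 195 and 188 CPM in Has2 replicates 1 to 4. For both genes the Has2 library was lower than its partner in the 2 female pairs and higher in the 2 male pairs. Hexa had a log2 fold change of 0.07 with a 95% interval of -0.19 to 0.32 (SE 0.11; edgeR adjusted p = 0.875). Gusb had one of 0.02 with a 95% interval of -0.24 to 0.27 (SE 0.11; edgeR adjusted p = 0.968).

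**Figure D2:**
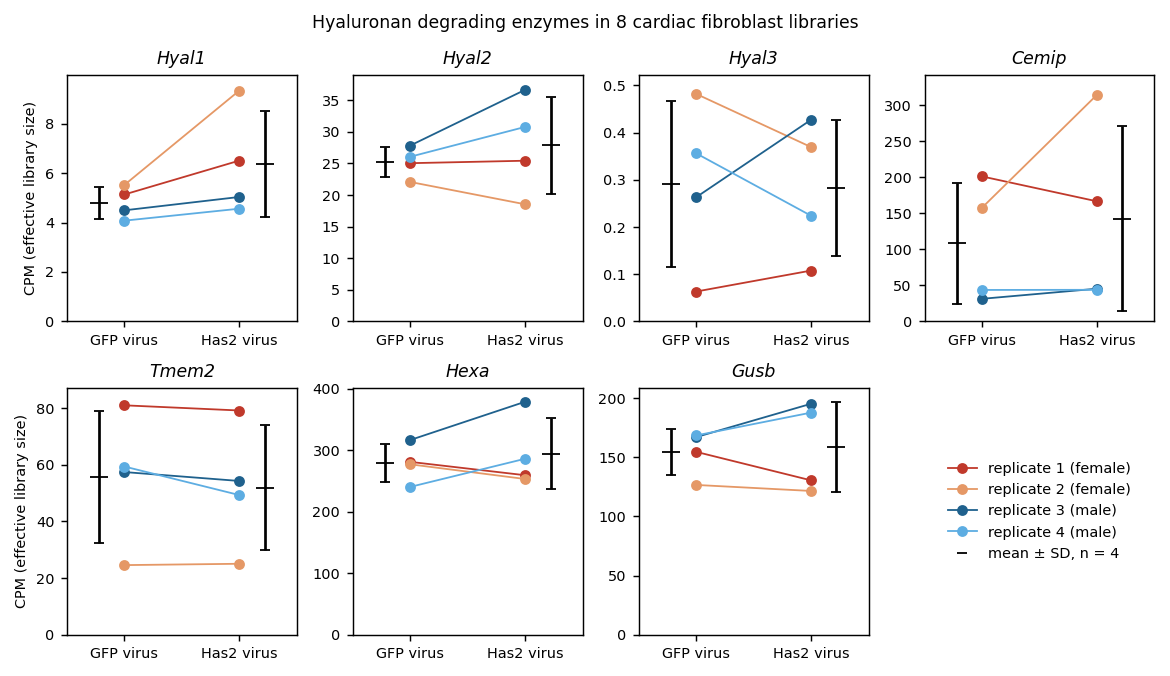
CPM of each enzyme in the 8 libraries, with a line joining the GFP and Has2 libraries of a replicate number and black bars for the mean ± SD of each group (n = 4). Hyal1 is higher with the Has2 virus in all 4 pairs, though it did not pass the test. Cemip is higher in replicates 1 and 2 than in replicates 3 and 4, and Tmem2 is lowest in both libraries of replicate 2.

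**Figure D3:**
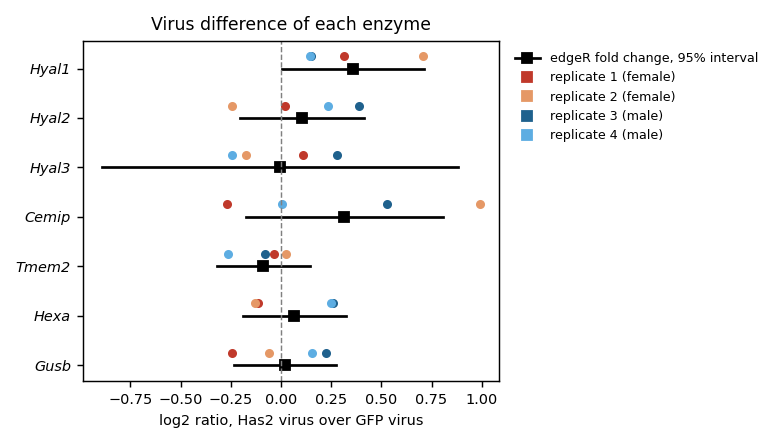
Log2 ratio of the Has2 over the GFP virus for each enzyme, with black squares for the edgeR estimate, black lines for its 95% interval and coloured points for the 4 pairs. Intervals of all members but Hyal1 include 0, and that of Hyal3 is the widest.

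Other genes of the same route gave small differences as well, none of them called. Of 24 further lysosomal glycosidases, sulfatases and their helpers, all of them tested, 18 had a positive and 6 a negative fold change and 0 passed. Their median log2 fold change was 0.07. Galc, which cleaves galactosylceramide, had the smallest p (log2 fold change 0.23, SE 0.09), followed by Gm2a, the activator protein that works with hexosaminidase A (0.17, SE 0.09), and Hgsnat, an enzyme of heparan sulfate breakdown (0.18, SE 0.10).

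Lysosome biogenesis and sorting genes numbered 22, of which 10 had a positive and 12 a negative fold change, with a median of -0.03 and 0 called. The 3 with the smallest p were Igf2r, the receptor that carries mannose 6-phosphate tagged enzymes to the lysosome (log2 fold change 0.36, SE 0.13), the proton pump subunit Atp6v1h (-0.21, SE 0.09) and the protease cathepsin L, Ctsl (-0.19, SE 0.09). Among 12 uptake receptors and binding proteins 10 were tested, 4 positive and 6 negative, with a median of -0.05 and 0 called. They were led by the scavenger receptor Stab1 (0.25, SE 0.11), Tlr4 (-0.47, SE 0.26) and Tnfaip6 (-0.18, SE 0.10). For the synthase Has1 the log2 difference was -0.37 (SE 0.28), and Has3, with 2 to 11 counts per library, was not tested.

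Cemip and Tmem2 differed between preparations, and the other 5 enzymes did not pass that test. A test of the 4 replicate numbers, in the same fit, called 2 of the 7 members, Cemip and Tmem2, beside 8.88% of all genes. Cemip averaged 184 and 236 CPM in the preparations of replicates 1 and 2 and 38.5 and 43.9 CPM in those of replicates 3 and 4 (edgeR adjusted p = 0.00734). Its preparation means spanned 5.83-fold. Tmem2 averaged 80.1, 24.8, 55.9 and 54.3 CPM in the same order, a span of 3.18-fold (edgeR adjusted p = 0.00594). Replicate 2 was lowest and replicate 1 highest, with replicates 3 and 4 between them. Without replicate 2 the adjusted p of Tmem2 was 0.16, in a fit that called 32 genes (0.21%) in place of 1346. Cemip was still called without it, with an adjusted p of 0.0406.

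At an unadjusted p under 0.05 in this edgeR test the members numbered 6 of 7, beside 4434 of 15150 genes. The members not called spread less. Preparation means spanned 1.60-fold for Hyal1, 1.57-fold for Hyal2, 1.58-fold for Hyal3, 1.45-fold for Gusb and 1.32-fold for Hexa, with edgeR adjusted p values of 0.122 to 0.216. With the GC and length trend removed Gusb was called as well (edgeR adjusted p = 0.0352), where 25.9% of all genes were. In 4 of the 7 members the 4 female libraries did not overlap the 4 male ones, beside 12.9% of all genes. Cemip and Hyal1 were higher in the female libraries, by 5.11 and 1.46 times on average. Hyal2 and Gusb were lower in them, at 0.751 and 0.742 times the male mean. Male and female preparations also carry different identifier letters, and the 2 factors cannot be told apart.

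Macrophage marker sums also differed between preparations, and are given beside the values of Tmem2. The 17 macrophage markers summed to 1192 and 1100 CPM in the GFP and Has2 libraries of replicate 2, and to between 2084 and 3035 CPM in the other 6. All 16 markers that could be tested were called between preparations. Of 10 endothelial markers 5 were called between preparations, among them Cdh5, an endothelial cadherin, at means of 15.97, 4.10, 6.03 and 8.28 CPM in replicates 1 to 4. The other 4 called (Pecam1, Emcn, Kdr and Tie1) were likewise highest in replicate 1 and lowest in replicate 2, as Tmem2 was. Of the 5 not called, Cldn5 and Vwf had the same order. Eng and Tek were instead highest in replicate 2, and Egfl7 was lowest in replicate 1. The sum of the 10 ran from 567 to 723 CPM, and was 681 and 697 CPM in the GFP and Has2 libraries of replicate 2. These genes were named after their values were seen. Replicate 2 was lowest in Tmem2, in the macrophage sum and in the 5 called endothelial genes. In replicates 1 and 4 Tmem2 averaged 80.1 and 54.3 CPM, while the macrophage sum was 2777 and 2639 CPM with the GFP virus. With the Has2 virus that sum was 2608 and 3035 CPM. Cemip was high in replicates 1 and 2, which had the highest and the lowest macrophage sum with the GFP virus. With the Has2 virus replicate 4 had the highest sum. The part of macrophages or endothelial cells in these differences was not tested.

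**Figure D4:**
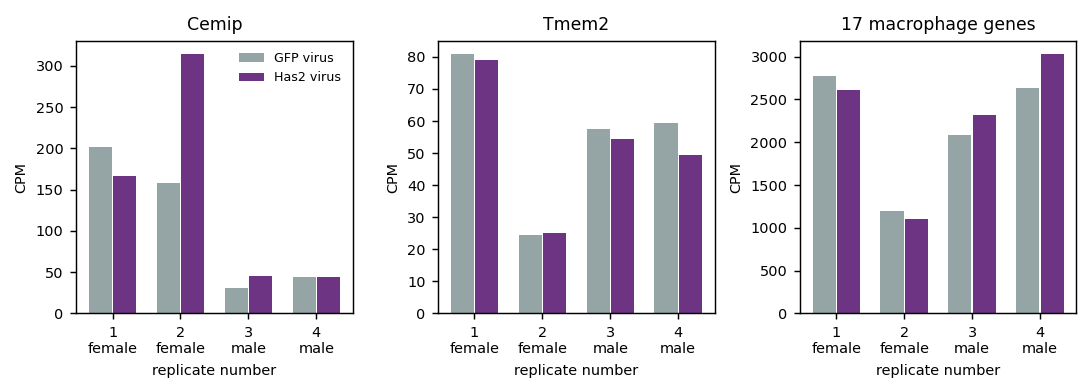
CPM of Cemip, of Tmem2 and of the sum of 17 macrophage markers by replicate number, with grey bars for the GFP virus and purple bars for the Has2 virus. Cemip is at or above 158 in the female and at or below 45.5 in the male libraries, while Tmem2 and the macrophage sum are lowest in replicate 2.

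The virus difference was also compared between the male and the female pairs, since the labels give the sex. In the blocked fit 2 of 7 members were called for this interaction, Hyal2 and Hexa, beside 29.5% of all genes, a share so large that 2 members are near the background. Hyal2 had a mean log2 ratio of -0.11 in female and 0.31 in male pairs, a difference of 0.43 (SE 0.14; edgeR adjusted p = 0.0427). Hexa had -0.12 and 0.25, a difference of 0.38 (SE 0.12; edgeR adjusted p = 0.036). Gusb, just outside the threshold, had -0.15 and 0.19 (difference 0.34, SE 0.12; edgeR adjusted p = 0.0594). Without the block 0 genes were called, and the adjusted p of Hyal2 and Hexa was 0.537 and 0.569. Male and female pairs also differ in the letter of the preparation identifier, which cannot be told apart from sex. Has2 stood at 9533 and 8406 CPM in the female Has2 libraries and at 3209 and 4860 CPM in the male ones. The part of the Has2 level in these differences was not tested.

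The pair ratios also varied with the GC content of the transcripts and with their length. Over all genes (not independent of each other), GC content and log2 ratio had a Spearman's rho of -0.231 and -0.182 in the pairs of replicates 1 and 2 and 0.685 and 0.657 in those of replicates 3 and 4. Hyal2 and Hexa have the highest GC content of the 7 members, 55.2% and 55.1%, and Tmem2 has the lowest, 49.8%. With a smooth trend of GC content and length removed from every library, the male minus female difference was 0.15 for Hyal2, 0.03 for Hexa and 0.11 for Gusb, and 0 members were called. The 4 pair values of Hexa then lay between 0.02 and 0.10 on the log2 scale, against -0.13 to 0.26 before.

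Hyal1 and Tmem2 looked different after that step. The pair values of Hyal1 became 0.40 and 0.77 in the females and -0.02 and -0.01 in the males, a difference of -0.62 (SE 0.20; unadjusted p = 0.0119; edgeR adjusted p = 0.0826). Its overall log2 fold change was then 0.32 (unadjusted p = 0.0756), and it was no longer higher in all pairs. Tmem2 became lower in all 4 pairs, by -0.10, -0.20, -0.10 and -0.14, with a log2 fold change of -0.13 (SE 0.06; edgeR adjusted p = 0.5). Neither passed the threshold.

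**Figure D5:**
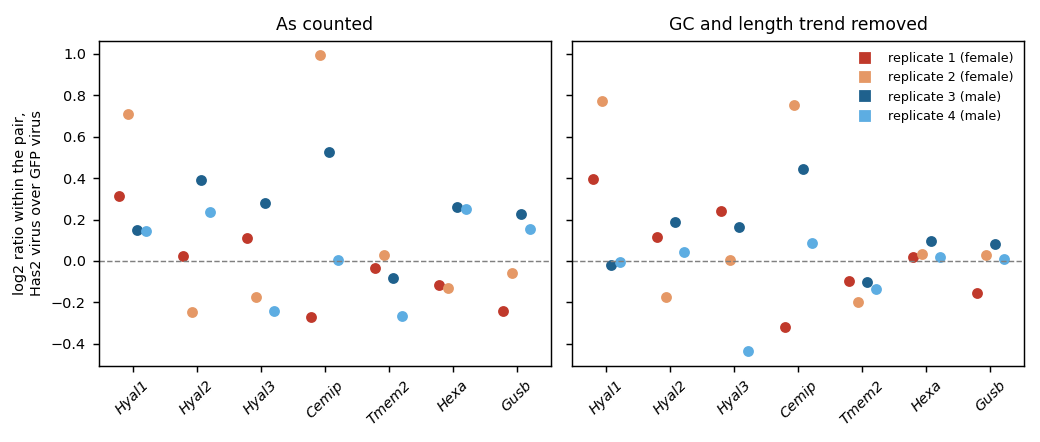
Log2 ratio of the Has2 over the GFP library in each pair, as counted (left) and after removal of the GC and length trend (right), coloured by replicate number. On the left Hexa, Gusb and Hyal2 are higher in male than in female pairs; on the right the points of Hexa lie between 0.02 and 0.10, and Hyal1 is at 0.40 and 0.77 in the female pairs alone.

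Across the 8 libraries some members varied together. Hyal2 and Gusb had a Pearson correlation of log2 CPM of 0.90, Hyal2 and Hexa 0.74, and Hexa and Gusb 0.60. On the other side Hyal1 and Cemip correlated at 0.82, and both ran against Gusb, at -0.76 and -0.85. Hyal3 went with neither side (0.04 with Hyal1, -0.04 with Hyal2, 0.01 with Gusb and -0.21 with Cemip). Tmem2 had 0.54 with Hyal2, 0.13 with Hexa, -0.32 with Cemip and -0.75 with Hyal3. These values describe 8 libraries that share 4 preparations and the GC and length trend above. Over the 4 log2 pair ratios, Hyal2 and Gusb had 0.71, Hyal2 and Hexa 0.90, and Hexa and Gusb 0.92. Hyal1 and Cemip had 0.64, Hyal1 and Gusb -0.52, and Hyal1 and Hyal2 -0.95. Cemip and Gusb, at 0.285, and Tmem2 and Hyal2, at -0.63, had the opposite sign there. Each of these rests on 4 points. Among 10304 genes with a mean of at least 5 CPM, the 2 most like Cemip were Lgi2 (0.995) and the adaptor gene Grb10 (0.986). For Tmem2 they were the small GTPase Rap2a (0.987) and the prostaglandin receptor Ptger4 (0.984). For Gusb they were Fem1a (0.993) and Asb6 (0.988), for Hexa the thymidine kinase Tk2 (0.980) and plakoglobin, Jup (0.965), and for Hyal2 Tbc1d13 (0.978) and Fjx1 (0.972). Hyal1 was most like the copper transporter Slc31a1 (0.967) and Ehd3 (0.967), and Hyal3 like Cntrob (0.946) and Tmem108 (0.939).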

How the data were processed

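The 8 libraries were made with a kit for stranded mRNA sequencing (labels' protocols). Whole-number counts for each Ensembl gene were deposited by the authors, made with HTSeq 0.10.0 after FastQC 0.10.1 on GRCm39, per the submitters' processing notes. Which aligner, annotation release and strand option were used is not given in the sources used here. Symbols, exon lengths and GC content came from GENCODE M21 (GRCm38) by Ensembl identifier; 52133 of 55414 identifiers matched.

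Groups and replicate numbers came from the labels. Shared preparation identifiers pair the libraries, and deviations from group means correlated at 0.637, 0.627, 0.573 and 0.431 within pairs 1 to 4. No replicates agreed within sampling noise (chi-square per degree of freedom 41.8 to 333). The main fit was edgeR 4.0.16 (R 4.3.3): quasi-likelihood F-test, TMM scaling, default expression filter, replicate number as a block, Benjamini-Hochberg adjustment over 15150 genes, threshold 0.05. The same fit tested the preparations and, with a sex by virus term, the interaction. Pair ratios use log2(CPM + 0.5). Intervals are 95% and assume separate samples. On simulated counts with 200 changed genes out of 14954 tested, the virus test called 7.46% of 67 genes changed 1.5-fold, 64.2% of 67 changed 2-fold and 90.9% of 66 changed 4-fold. In the sex by virus test (14983 genes) it was 0%, 5.97% and 62.1%. In the test of preparations (15023 genes, with the change put into replicate 2) it was 0%, 13.4% and 75.8%. Unchanged genes called numbered 10, 6 and 5 in the virus, sex by virus and preparation tests. The simulated spread was estimated with the replicate number alone in the model, so differences by virus were part of it. These rates therefore need not hold for the data.

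The members, the lists and the tests were chosen with earlier results of these data known. Named are all 7 members, Has1 to Has3, up to 3 genes of smallest p in each list of the same route, and the 2 genes most like each member. The list medians are descriptions, with no set test. Alternatives were the fit without the block, RLE scaling, library totals, TMM without Has2 counts, other filters, DESeq2 1.42.0, limma-voom (limma 3.58.1), removal of a smooth GC and length trend from each library (natural splines with 5 degrees of freedom), and leaving out each pair or each library. Exon bases shared with no other gene were used as a length after seeing the data. One item of the lists is not reported here.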

Additional observations from a re-analysis of the deposited data

Results flagged for a closer look

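Hyal2 and Hexa drew attention because they were called in the test of the virus difference between male and female pairs. That test also called 29.5% of all genes, so that 2 of 7 members is near the background. Sex and the letter of the preparation identifier cannot be told apart in it. The male minus female log2 difference was 0.43 for Hyal2 (0.431; edgeR adjusted p = 0.0427) and 0.38 for Hexa (0.378; edgeR adjusted p = 0.036), lower than the GFP partner in 1 of 2 and 2 of 2 female pairs and higher in 2 of 2 male pairs. After removal of the GC and length trend the differences were 0.15 and 0.03, and neither was called. Over the 14 alternatives the adjusted p of this difference ranged from 0.00511 to 0.547 for Hyal2, called in 4, and from 0.0272 to 0.871 for Hexa, called in 6. Dixon's test, the gap to the nearest library over the range of the group, called no library. It was applied to 14 sets of values, 7 enzymes by 2 viruses. With 4 libraries in a set it can call only a very wide gap, so it cannot show that none stood apart. The ratio was 0.74 for Hexa with the Has2 virus, the largest of the 14, and 0.58 for Tmem2 with the GFP virus.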

How the results depend on the processing

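None of the 7 enzymes was called between the viruses under any of the 22 alternatives (21 for Hyal3), and the log2 fold change of Hyal1 stayed positive, from 0.16 to 0.53. The number of genes called was 0 with library totals as the scale, 118 with no expression filter, 61 with DESeq2 and the block, 7 with DESeq2 and no block, 2 with the GC and length trend removed, and 0 to 1 on leaving out a pair (0 without replicate 1). Members near 0 changed sign: Hyal3 was at 0.018 with RLE scaling, 0.025 with Has2 left out of TMM, 0.034 with no filter, 0.055 with DESeq2 and the block and 0.0095 with limma-voom, and Gusb was at -0.0082 with the trend removed. Leaving out a pair gave -0.29 to 0.27 for Hyal3 and -0.048 to 0.14 for Gusb. Leaving out 1 library, without the block, gave -0.35 to 0.30 for Hyal3 (0.11 without GFP replicate 4, 0.25 without Has2 replicate 1, 0.047 without Has2 replicate 4), -0.35 to 0.92 for Cemip and -0.36 to 0.16 for Tmem2 (0.13 without Has2 replicate 2). It gave -0.019 to 0.29 for Hyal2, -0.066 to 0.16 for Hexa and -0.072 to 0.15 for Gusb (-0.040 without GFP replicate 2, -0.047 without Has2 replicate 4). The median of the uptake receptors was 0.066 with the trend removed, -0.096 to 0.098 without a pair and -0.13 to 0.10 without a library (0.072 without GFP replicate 4). That of the synthases other than Has2 was -0.66 to 0.23 without a library (0.20 without GFP replicate 4).

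The sex by virus calls depended on pairing by replicate number, among other settings: with no replicate block 0 genes and 0 members were called, and with DESeq2 and no block 675 genes and 0 members. In the virus test the unpaired edgeR fit called 1 gene and 0 members. With the block, 1610 genes (10.6%) and 0 members were called in the sex by virus test after trend removal. Members called were 0 with library totals (27.4% of all genes), 0 with no filter (16.2%), 1 with a stricter filter (34.5%) and 1 with DESeq2 (23.7%). Leaving out a pair gave 2353 to 4972 genes and 0 to 3 members. The difference changed sign for Hyal3 (-0.053 with DESeq2, -0.15 with the trend removed, -0.68 to 0.81 on leaving out a pair), for Tmem2 (0.022 with the trend removed) and for Cemip (0.049 with the trend removed). For Cemip it was -0.71 without replicate 1 (edgeR adjusted p = 0.00136) and 0.54 without replicate 2 (edgeR adjusted p = 0.00168); each of these fits has 1 female pair, so the spread comes from the 2 male pairs alone and the p-values say little. Between preparations, 2214 genes were called with no filter, 3218 with DESeq2, 3929 with the trend removed and 32 to 1284 on leaving out a pair, with 1 to 2 members on leaving out a pair (1 without replicate 2) and 3 with the trend removed, Gusb being added. The level of Hyal1 was at most 3.07 CPM per kilobase, with its whole count divided by its unshared exon bases, and that of Gusb 58.2 by its longest transcript. The cause of these changes was not tested. Counts of 3 to 23 per library limit Hyal3.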
